A study of Mus musculus with 8 samples.

Results

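The genes described here encode amino acid transporters of the solute carrier (SLC) families, most of them proteins of the plasma membrane. They were chosen by name, with earlier results of these data known, and all 36 are in the deposited table of 27534 genes. The table comes from pancreatic islets, the endocrine clusters of the pancreas, taken from C57BL/6J mice and kept for 72 h in RPMI medium with serum. Of the 8 bulk RNA sequencing libraries, 4 came from islets in 20 mM glucose (high glucose) and 4 from islets in 7.5 mM glucose (low glucose). The labels name no genetic change and no drug in either group, and give no age or sex. The comparison asks which transcripts differ after sustained high glucose. Nothing says whether the libraries of a group come from separate animals or cultures, so the p-values measure the spread between these libraries, which may be technical. The medium itself supplies amino acids to both groups.

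Amino acid transporters fall into families that share a fold and a driving force rather than a substrate. Sodium-coupled carriers concentrate amino acids inside the cell, while exchangers and facilitative carriers trade one amino acid for another or let it run down its gradient. The heteromeric transporters pair a light chain, which carries the substrate, with a heavy chain that brings the pair to the cell surface. In β cells, which make large amounts of insulin, these proteins supply translation, and arginine, leucine and glutamine also act on insulin release. The list also holds carriers best known from inside the cell: Slc38a7, Slc38a9 and Slc36a1 are known from lysosomes and Slc6a17 from synaptic vesicles, and Slc43a3 is known as a carrier of purine nucleobases.

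Total counts ran from 19543045 to 24949515 per library, and 3 counts, taken as the detection floor, correspond to 0.12 to 0.154 CPM, the count scaled to a common library size. That floor covers counting error only. Levels below are CPM scaled by TMM, which corrects library size for differences in composition, and levels are compared between genes only in FPKM, the authors' deposited values per kilobase of gene. Islet markers were abundant: Ins1 and Ins2 took 17.2% to 22.7% of counts, and all 9 listed β-cell markers were tested. Of these, Ucn3, Slc2a2 and Mafa were lower in high glucose (log2 fold changes -0.79, -0.52 and -0.47) and G6pc2 and Iapp higher (0.95 and 0.70). Of 8 α-cell markers, Gc and Ttr were higher (6.02-fold and 1.65-fold) and Gcg did not pass (adjusted p = 0.626). The δ-cell hormone gene Sst did not pass (adjusted p = 0.0628) but passed as higher with the replicate number as a block (2.98e-05). Of the 4 δ-cell markers, Ghsr passed as lower with the block (adjusted p = 0.0218), and Hhex and Rbp4 passed in neither fit. The part of these shifts in the transporter results was not tested. The share of counts in 15 acinar markers, which belong to digestive enzyme-producing cells, was 0.324% to 1.82% in high and 0.133% to 1.1% in low glucose and was higher in high glucose in each of the 4 same-number pairs. Summed fibroblast and stellate markers ran from 142 to 1140 CPM with high glucose, against 114 to 320 CPM with low. The maximum was that of high glucose replicate 1. High glucose replicates 2 to 4 were at 308, 281 and 142 CPM, and 0 of the 8 markers passed. In these bulk samples, fewer cells of a type and less RNA per cell cannot be told apart.

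Transporter transcripts moved in both directions in high glucose, with more of them higher than lower. Carriers of arginine and lysine moved in opposite directions: the minor transcript Slc7a3 rose 4.22-fold while the more abundant Slc7a2 fell 2.03-fold. The cystine carrier gene Slc7a11 rose 2.33-fold, and the abundant Slc38a10, Slc38a4 and Slc16a10 rose between 1.32-fold and 1.52-fold. The abundant heavy chain Slc3a2 and its main light chain Slc7a5 did not pass the test. Of the 36 genes, 32 passed the filter on low counts and were tested over the whole table with edgeR's quasi-likelihood test, with p-values adjusted over 15442 genes and a threshold of 0.05. Of these, 10 were higher, 5 were lower and 17 did not pass. Over all genes tested, 13.1% were higher and 11.9% were lower by the same rule, against 31.2% and 15.6% of the tested transporters. The share of lower transporters is thus near the background. The median log2 fold change was 0.28 over the tested transporters and -0.01 over all genes. In 10 transporters every high glucose library was above every low glucose library, and in 4 the reverse held, while over all genes tested 13.7% and 13.6% were separated in these directions. The authors' deposited table has 11 of the tested transporters higher and 5 lower at its own adjusted p under 0.05, beside 14.2% and 12.6% of the same genes. With library size alone as scaling, 37.8% of all changed genes were higher instead of 52.5%, and 8 transporters were higher and 5 lower. With each library left out in turn the count of lower transporters was within 1.5 times of 5 except without low glucose replicate 3, where it was 3. It was 2 without both libraries numbered 4, an alternative chosen after the data were seen.

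**Figure D1:**
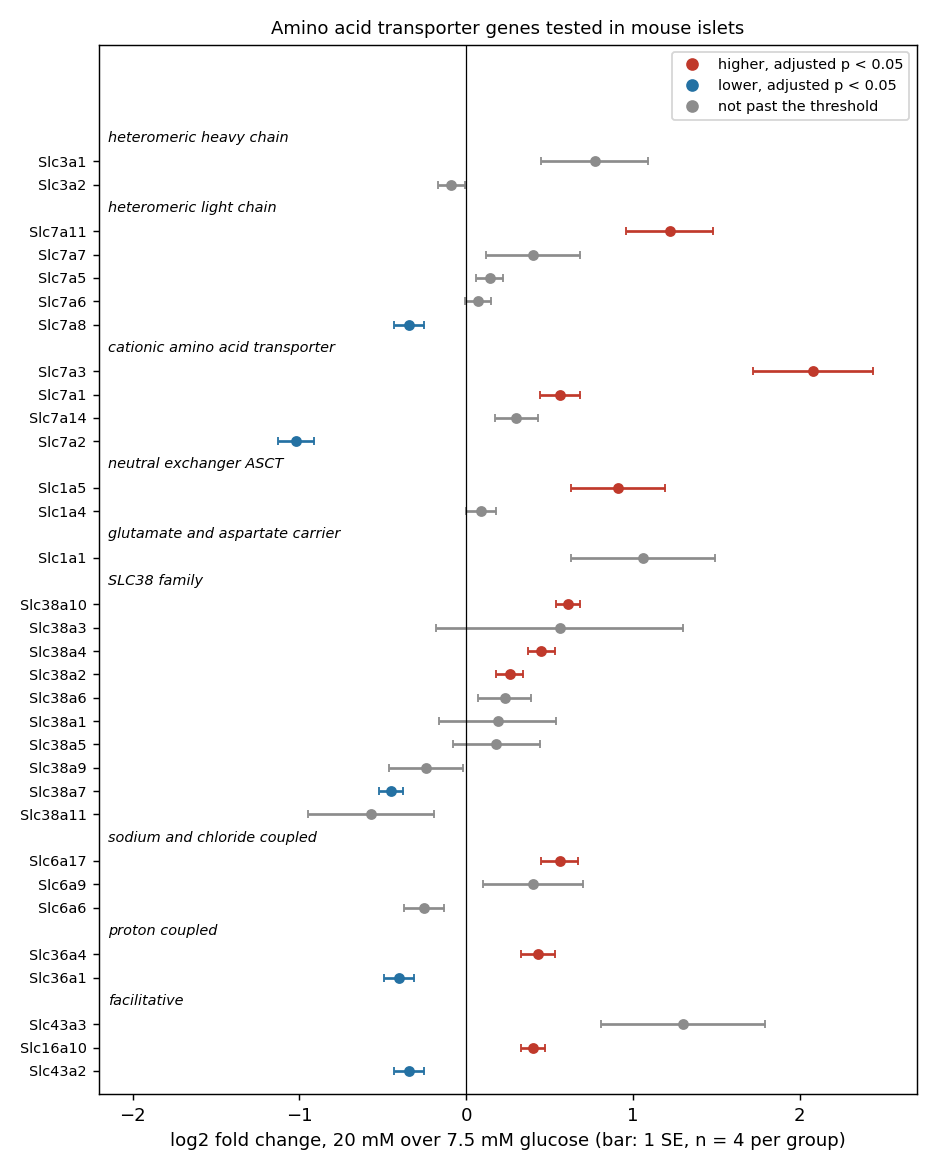
Log2 fold change of each tested transporter gene, 20 mM over 7.5 mM glucose (x axis), by kind of carrier (y axis), where the bars are 1 standard error with 4 libraries per group. The red points (10 genes) and blue points (5 genes) passed the threshold, with Slc7a3 at 2.08 and Slc7a2 at -1.02 at the ends among them, and the grey points (17 genes) did not.

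The replicate numbers were taken to pair the libraries by the rule given with the processing, which pair 1 met only just. In the fit with the replicate number as a block 14 transporters were higher and 6 lower. In that fit 18.9% of all genes were higher and 18.5% lower. The added transporters were Slc6a9, Slc7a14, Slc38a3 and Slc43a3, which were higher, and Slc6a6, which was lower. Low glucose replicate 2 had the lowest CPM of its group in 19 of the 32 tested transporters, or 59.4%, against 32.6% of all genes tested.

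By the authors' FPKM, the most abundant of the 36 transcripts in high glucose was that of Slc38a4, at 92.3 ± 6.85 FPKM (mean ± SD over the 4 libraries of a group, as in all such values). In low glucose it was at 66.4 ± 4.78 FPKM. Next came Slc38a10 at 78.1 ± 5.2 FPKM, Slc3a2 at 74.5 ± 3.13, Slc7a5 at 67.7 ± 4.57, Slc7a14 at 55.9 ± 5.13 and Slc16a10 at 50.7 ± 2.83 FPKM in high glucose. The SDs of Slc38a10 and Slc3a2 overlapped, as did those of Slc3a2 and Slc7a5 and those of Slc7a14 and Slc16a10. In low glucose the order was different at the top: Slc3a2 led at 78.1 ± 6.11 FPKM, and Slc7a2, at 61 ± 9.35 FPKM, stood among Slc38a4 and Slc7a5 (60.5 ± 4.71), with overlapping SDs. Slc7a2 was at 30.5 ± 1.36 FPKM in high glucose, below Slc7a8 (35.1 ± 1.32) and Slc6a6 (35.3 ± 3.78), though its SD overlapped that of Slc6a6. All 36 transcripts together came to 638 ± 27 FPKM in high and 591 ± 35.5 FPKM in low glucose, with overlapping ranges of 609 to 670 and 539 to 614 FPKM.

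Among the chains of the heteromeric transporters, the cystine carrier rose, 1 large neutral carrier fell, and the others did not pass. Slc3a2 encodes the heavy chain 4F2hc, the partner of most light chains (ENSMUSG00000010095, GRCm38 chromosome 19, 8706882 to 8723369, minus strand). Its CPM in high glucose replicates 1 to 4 was 252, 280, 263 and 268, and in low glucose replicates 1 to 4 it was 271, 315, 265 and 279. The groups overlapped, with a log2 fold change of -0.09 ± 0.08 (SE) and adjusted p = 0.447. Slc7a5, the leucine and large neutral amino acid carrier LAT1, stood at 269, 250, 264 and 232 CPM with high glucose, against 215, 216, 247 and 242 CPM with low. Those groups overlapped as well (log2 fold change 0.14 ± 0.08, adjusted p = 0.233). Slc7a8 encodes LAT2, which takes smaller neutral amino acids besides the large ones, and fell 1.27-fold. Its CPM was 171, 186, 180 and 173 in high and 231, 186, 246 and 237 in low glucose, where replicate 2 lay level with the highest of the high glucose libraries (adjusted p = 0.0203). This call was lost without high glucose replicates 1 or 4 (adjusted p = 0.0623 and 0.0553) and without low glucose replicates 1, 3 or 4 (adjusted p = 0.0557, 0.0629 and 0.0612). The FPKM of Slc7a8 was 0.473 to 0.554 of that of Slc7a5 in high glucose libraries and 0.639 to 0.798 in low glucose libraries, so these ranges did not overlap.

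Slc7a11 encodes xCT, which exchanges glutamate for cystine and so feeds glutathione synthesis (ENSMUSG00000027737, chromosome 3, 49892526 to 50443614, minus strand). Its CPM was 25.3, 18.3, 24.7 and 27.7 in high glucose replicates 1 to 4 and 10.8, 6.59, 7.2 and 16.5 in low glucose replicates 1 to 4. Every high glucose library was above every low glucose library, by a narrow margin between high glucose replicate 2 and low glucose replicate 4. The rise was 2.33-fold (log2 fold change 1.22 ± 0.26, adjusted p = 0.00623) and kept its direction and call under all 18 alternatives run. Its 2 highest libraries in each group were also the 2 with the most acinar marker counts, replicates 1 and 4. With the acinar share as a covariate it was 2.15-fold higher (adjusted p = 0.00151), and 9 transporters were higher and 5 lower in that fit, beside 12.7% and 10.5% of all genes. Even in high glucose Slc7a11 was a minor transcript, at 1.71 ± 0.288 FPKM.

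Slc7a11 is also a textbook target of the transcription factor ATF4, which binds elements of the form TGATGNAA, where N is any base. Promoters were taken from the RefSeq table (build GRCm38.p6), as the 300 bases from 250 before to 50 after each start. Of the 36 transporters, 27 had an entry there. The motif was searched on both strands and was found in 3.97% of all 32851 promoters. The 27 transporters have 39 promoters in the table, of which 4 held it, in 3 genes: Slc7a11, Slc1a4 and Slc7a7. The stretch of the Slc7a11 promoter from 120 bases before to 25 bases after the start (chr3:50443589-50443733, minus strand) is shown because it holds 2 matches in opposite orientation. Both are in capitals, at bases -66 to -59 and -47 to -40 from the start.

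Slc7a11: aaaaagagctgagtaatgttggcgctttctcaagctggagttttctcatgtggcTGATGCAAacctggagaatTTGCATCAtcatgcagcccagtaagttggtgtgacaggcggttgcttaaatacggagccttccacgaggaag

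A match is a description of these letters and not a measured binding site. Slc1a4 and Slc7a7, which hold the same motif, did not pass the test, and no other transporter that rose held it in the promoters of the table. The 9 transporters without an entry there were not searched.

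The other light chains were at lower levels. Slc7a6, a carrier that exchanges cationic for neutral amino acids, stood at 26.1, 24.4, 23.4 and 26.6 CPM with high glucose, against 23.2, 22.7, 26.1 and 23.9 CPM with low (adjusted p = 0.573). The related Slc7a7 stood at 4.09, 3.33, 1.65 and 4.2 CPM with high glucose, against 2.27, 2.62, 2.37 and 2.83 CPM with low (adjusted p = 0.334). High glucose replicate 3 was the lowest library of all for Slc7a7, and without it the adjusted p was 0.0494. Slc7a7 shares 7.0% of its exon bases with Oxa1l on the opposite strand, which had 5151 counts over all libraries against 35 to 104 per library for Slc7a7, so its counts are uncertain. Slc3a1, the heavy chain of the cystine carrier known from kidney, stood at 1.78, 1.66, 1.46 and 1.94 CPM with high glucose, against 1.59, 0.536, 0.994 and 0.816 CPM with low (adjusted p = 0.109, and 0.0303 without low glucose replicate 1). It shares 26.5% of its exon bases with the more abundant Prepl on the opposite strand, so its counts are uncertain. The 5 light chains together came to 111 ± 4.32 FPKM in high and 111 ± 9.75 FPKM in low glucose.

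**Figure D2:**
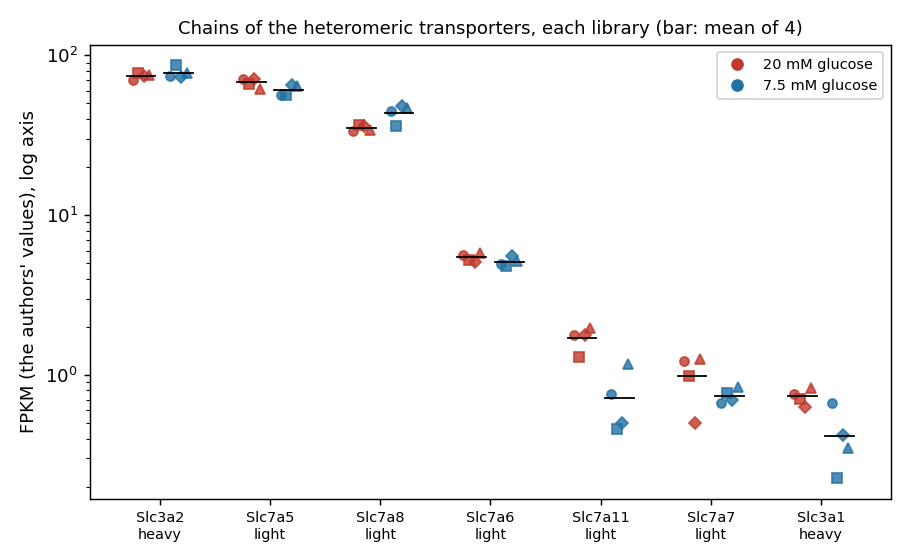
FPKM of the heavy and light chains (y axis, log scale), 1 point per library with 20 mM glucose in red and 7.5 mM in blue, where the bar is the mean of 4 libraries and the shapes are the replicates. Slc3a2 and Slc7a5 are the most abundant and their groups overlap, while Slc7a11, at 0.46 to 1.97 FPKM, is separated between the groups.

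The cationic amino acid transporters, which carry arginine, lysine and ornithine, included 2 that rose and 1 that fell. Slc7a2 encodes CAT2 (ENSMUSG00000031596, chromosome 8, 40862396 to 40922308, plus strand) and was the most abundant of Slc7a1, Slc7a2 and Slc7a3 in both groups. Its CPM was 291, 268, 291 and 276 in high and 635, 444, 622 and 585 in low glucose. No high glucose library reached the lowest of the low glucose libraries, replicate 2. It fell 2.03-fold (log2 fold change -1.02 ± 0.11, adjusted p = 0.000118), the smallest adjusted p of the tested transporters. Gm26584 on the opposite strand shares 6.95% of its exon bases and had 169 counts over all libraries, beside 5155 to 16745 counts of Slc7a2 in each library.

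Slc7a1 encodes CAT1, the broadly expressed member, and rose 1.47-fold, from 77.4 ± 10.8 to 114 ± 12.6 CPM (adjusted p = 0.00527). Slc7a3 encodes CAT3, known best from brain (ENSMUSG00000031297, chromosome X, 101079210 to 101086020, minus strand). Its CPM was 11.2, 9.93, 11.7 and 16.8 in high and 3.3, 1.98, 1.23 and 5.23 in low glucose. The groups did not overlap, and the rise was 4.22-fold (log2 fold change 2.08 ± 0.36, adjusted p = 0.002), the largest fold of the tested transporters. Slc7a3 was a minor transcript, at 3.25 ± 0.796 FPKM in high and 0.759 ± 0.459 FPKM in low glucose. In low glucose the order of its libraries was that of their acinar share, and in high glucose replicate 4 was highest in both. With the acinar share as a covariate the rise was 3.85-fold (adjusted p = 0.000186). The ratio of Slc7a1 to Slc7a2 in FPKM was 0.284 to 0.337 in high and 0.096 to 0.118 in low glucose libraries. Summed over Slc7a1, Slc7a2 and Slc7a3 the level was 43.5 ± 2.68 FPKM in high and 68.3 ± 10.3 FPKM in low glucose, and the highest high glucose library (45.6) lay below the lowest low glucose library (53). Slc7a14, a related carrier of internal membranes, stood at 555 ± 47.8 CPM with high glucose, against 450 ± 81.2 CPM with low. It did not pass (log2 fold change 0.30 ± 0.13, adjusted p = 0.124), but passed with the replicate block (adjusted p = 0.00367).

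The SLC38 family holds sodium-coupled carriers of neutral amino acids. Of 10 members, all tested, 3 rose, 1 fell and 6 did not pass. Beside these, 13.1% of all genes tested were higher and 11.9% lower. Slc38a10 is a member whose role is less settled (ENSMUSG00000061306, chromosome 11, 120103960 to 120151346, minus strand). Its CPM was 526, 471, 539 and 491 in high and 321, 356, 327 and 327 in low glucose. The groups lay far apart, and the rise was 1.52-fold with a log2 fold change of 0.61 ± 0.07 (adjusted p = 0.000257). Gm11769 on the opposite strand shares 5.72% of its exon bases, with 827 counts over all libraries against 6646 to 12144 per library for Slc38a10. Slc38a4, which carries small neutral amino acids and is known from liver (ENSMUSG00000022464, chromosome 15, 96994820 to 97055956, minus strand), was at 398, 393, 432 and 365 CPM in high glucose. In low glucose it was at 303, 260, 303 and 294 CPM, below every high glucose library (1.37-fold, log2 fold change 0.45 ± 0.08, adjusted p = 0.00248).

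Slc38a2 encodes SNAT2, the carrier of system A that cells raise when amino acids run short. It rose 1.19-fold, from 130 ± 11.7 to 156 ± 6.42 CPM, and its groups did not overlap (adjusted p = 0.0385). The call was lost with library size alone as scaling (adjusted p = 0.241), without the low-count filter (0.0665) and with the acinar share as a covariate (0.0672). Its log2 fold change was 0.26, and it was 0.17, 0.26 and 0.24 in those fits. Leaving out 1 library also ended it: adjusted p was 0.122, 0.0861 and 0.0774 without high glucose replicates 1, 3 and 4, and 0.096 and 0.0664 without low glucose replicates 3 and 4. Slc38a3, which carries glutamine, varied widely within both groups: 10.9, 4.31, 3.44 and 22.6 CPM with high glucose and 9.63, 2.62, 1.14 and 14.5 CPM with low. Replicates 1 and 4 were its highest libraries in both groups, and these held the most acinar marker counts. Its log2 fold change was 0.56 ± 0.74 (adjusted p = 0.627), 0.04 with the acinar share as a covariate (adjusted p = 0.885), and 0.65 with the replicate block (adjusted p = 0.0138).

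Of the other SLC38 members, Slc38a1, Slc38a5, Slc38a6, Slc38a9 and Slc38a11 had log2 fold changes between -0.57 and 0.23 and did not pass. Slc38a5, a glutamine carrier known from α cells and acinar cells, stood at 7.78 to 17.5 CPM with high glucose, against 7.85 to 15.1 CPM with low. Slc38a9, the lysosomal arginine sensor of the growth kinase complex mTORC1, was at 5.03 ± 0.788 and 5.94 ± 1.72 CPM (adjusted p = 0.459).

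The transporters best known from lysosomes included a pair that fell. Slc38a7 exports glutamine from lysosomes (ENSMUSG00000036534, chromosome 8, 95835920 to 95853539, minus strand). Its CPM was 23.5, 22.4, 21.9 and 24.7 in high and 31.2, 32.9, 30.2 and 32.6 in low glucose. The libraries of each group lay close together and the groups apart, with a 1.37-fold fall (log2 fold change -0.45 ± 0.07, adjusted p = 0.001). Slc36a1, a proton-coupled carrier of small amino acids (ENSMUSG00000020261, chromosome 11, 55204350 to 55236330, plus strand), was at 70, 60.5, 62.9 and 63.2 CPM in high glucose. In low glucose it was at 90.6, 72.8, 92 and 82.1 CPM, so that again no library of 1 group reached the other. The fall was 1.32-fold (log2 fold change -0.40 ± 0.09, adjusted p = 0.00748). Without both libraries numbered 4, which held the most acinar marker counts of their groups, the adjusted p of Slc36a1 was 0.053. That alternative was chosen after the data were seen.

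Both promoters hold the letters CACGTG, the core of the motif bound by basic helix-loop-helix factors, among them the regulators of lysosomal genes. The motif reads the same on both strands. It was found in 7.15% of all promoters in the RefSeq table, and in 5 of the 39 promoters of transporters, each of another gene: Slc38a7, Slc36a1, Slc7a14, Slc38a5 and Slc43a1. The last 3 did not pass the test or were not tested. The stretches from 120 bases before to 25 bases after the start are shown for the pair that fell, with the motif in capitals. They lie at chr8:95853467-95853611 (minus strand) for Slc38a7 and chr11:55204220-55204364 (plus strand) for Slc36a1, in build GRCm38.p6. Slc36a1 was added to these sequences after its values were seen.

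Slc38a7: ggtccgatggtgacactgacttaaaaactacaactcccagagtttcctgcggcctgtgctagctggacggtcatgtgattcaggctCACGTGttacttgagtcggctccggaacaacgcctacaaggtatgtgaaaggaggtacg
Slc36a1: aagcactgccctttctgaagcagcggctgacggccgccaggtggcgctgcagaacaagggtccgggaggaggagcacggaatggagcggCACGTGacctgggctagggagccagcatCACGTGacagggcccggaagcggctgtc

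Slc38a7 holds the motif at bases -34 to -29 and Slc36a1 at -31 to -26 and again across the start, from -3 to 3. The sequences are those of the reference and no binding was measured.

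Slc36a4 is a relative of Slc36a1 that carries proline and tryptophan with high affinity, and it moved the other way. It rose 1.34-fold, from 39.4 ± 4.77 to 52.9 ± 4.21 CPM, without overlap between the groups (log2 fold change 0.43 ± 0.10, adjusted p = 0.00883). Slc36a2, the third member measured, had 0 to 5 counts per library and was not tested.

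Among facilitative carriers, Slc16a10 and Slc43a2 changed in opposite directions. Slc16a10 encodes TAT1, which carries tryptophan, tyrosine and phenylalanine (ENSMUSG00000019838, chromosome 10, 40033532 to 40142258, minus strand). Its CPM was 390, 361, 397 and 360 in high and 295, 283, 279 and 288 in low glucose. The low glucose libraries differed little among themselves, and the rise was 1.32-fold (log2 fold change 0.40 ± 0.07, adjusted p = 0.00183). Slc43a2, the large neutral carrier LAT4, fell 1.26-fold from 224 ± 15.8 to 177 ± 18.7 CPM (adjusted p = 0.0216, and 0.0639 without low glucose replicate 3). Gm45606 on the opposite strand shares 9.18% of its exon bases and had 2021 counts over all libraries. The nucleobase carrier Slc43a3 was at 5.15 CPM in high glucose replicate 1, the library with 1140 CPM of fibroblast and stellate markers, and at 1.05 to 1.92 CPM in the other high glucose libraries. In low glucose it was at 0.672 to 1.34 CPM (log2 fold change 1.3 ± 0.49, adjusted p = 0.0792). It passed with the replicate block (adjusted p = 0.0206), in DESeq2 (0.0314) and without high glucose replicate 4 (0.0411). The part of the fibroblast markers in this difference was not tested. Slc43a1 had at most 5 counts in a library and was not tested.

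**Figure D3:**
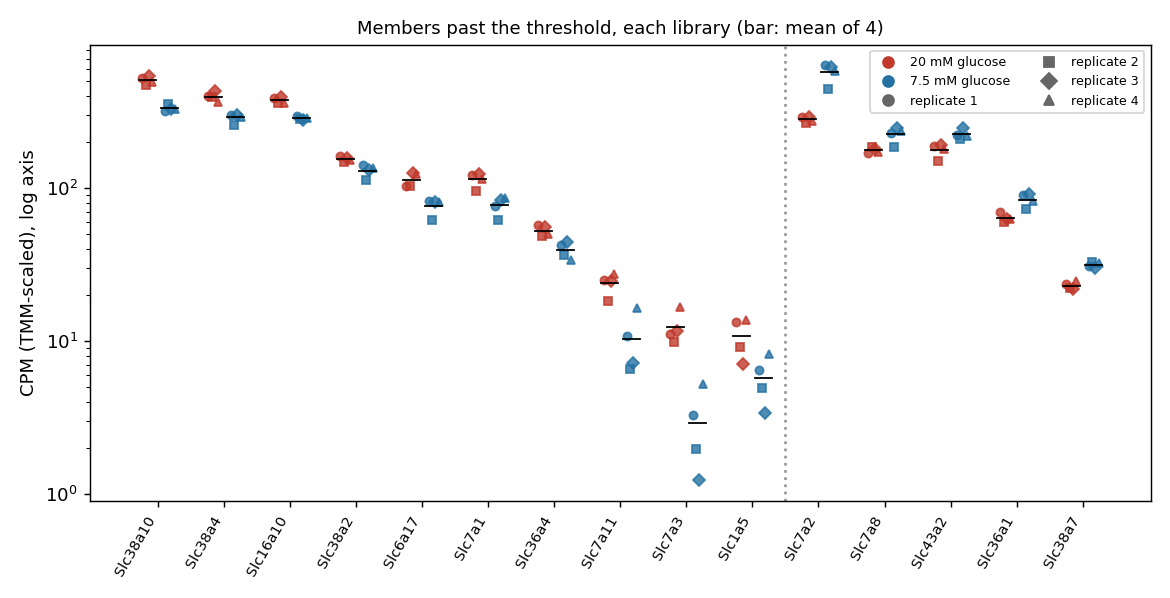
TMM-scaled CPM (y axis, log scale) of the transporters that passed the threshold, 1 point per library with shapes for the replicates, 20 mM glucose in red and 7.5 mM in blue, and the mean of 4 libraries as a bar. The 10 genes left of the dotted line were higher and the 5 to its right lower in high glucose, and the groups overlap only for Slc1a5 and, by a small margin, Slc7a8.

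The carriers of glutamate, glutamine, glycine and taurine gave mixed results. Slc1a5 encodes ASCT2, a glutamine exchanger, and rose 1.87-fold from 5.77 ± 2.05 to 10.8 ± 3.24 CPM (log2 fold change 0.91 ± 0.28, adjusted p = 0.039). Its groups overlapped, at 7.07 to 13.7 and 3.41 to 8.21 CPM, but it was higher in high glucose in 4 of 4 same-number pairs. Its adjusted p was 0.000125 with the replicate block and 0.00522 with the acinar share as a covariate, where the fold was 1.63. The call was lost with library size alone (0.0654), without high glucose replicates 1, 2 or 4 (0.112, 0.0506 and 0.104) and without low glucose replicates 1, 2 or 3 (0.0686, 0.0605 and 0.0918). Slc1a4, the serine and alanine exchanger ASCT1, did not pass, at 41.3 ± 0.971 and 38.8 ± 5.04 CPM (adjusted p = 0.521). In FPKM it was above Slc1a5, at 10.4 ± 0.199 and 9.65 ± 1.26 against 2.56 ± 0.763 and 1.35 ± 0.489.

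Of the glutamate carriers, Slc1a1 stood at 0.66 to 1.35 CPM with high glucose, against 0.142 to 0.643 CPM with low, without overlap but with only 3 to 28 counts per library (adjusted p = 0.101). The long non-coding 4430402I18Rik on the opposite strand shares 31.9% of its exon bases. Slc1a2 and Slc1a3, the glutamate carriers of astrocytes, had 0 to 20 counts per library and were not tested. Slc6a17, a vesicular carrier of neutral amino acids, rose 1.48-fold from 76.9 ± 9.66 to 114 ± 12.3 CPM (log2 fold change 0.56 ± 0.11, adjusted p = 0.00362). Slc6a6, the taurine transporter, stood at 302 ± 30.6 CPM with high glucose, against 360 ± 52.9 CPM with low. It did not pass (adjusted p = 0.15), but passed as lower with the replicate block (adjusted p = 0.00424) and without low glucose replicate 2 (0.0139). Slc6a9, the glycine transporter GlyT1, was at 6.81 to 17.3 and 5.46 to 12.4 CPM (adjusted p = 0.369). With the block its adjusted p was 0.0126, and with the acinar share as a covariate it was 0.559. It shares 27.8% of its exon bases with Ccdc24.

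**Figure D4:**
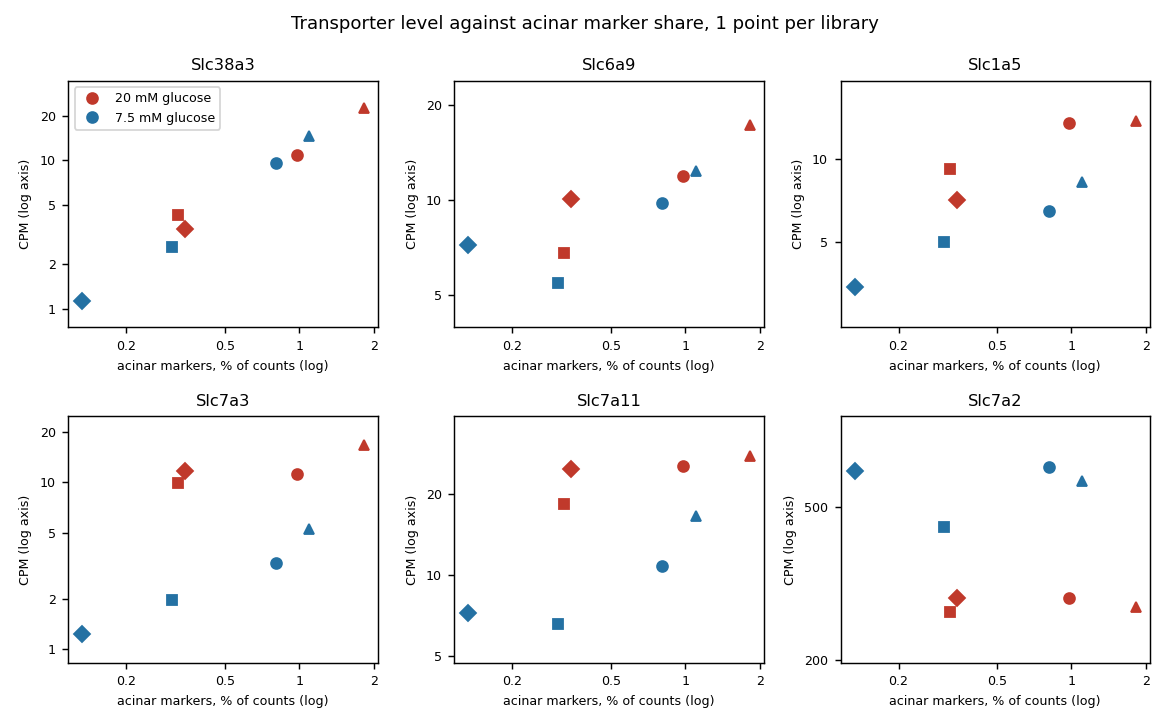
CPM of 6 transporters (y axes, log scale) against the share of counts in acinar markers (x axes, percent, log scale), 1 point per library, with the same colours and replicate shapes as in the plot of CPM by gene. Slc38a3 and Slc6a9 were highest where the acinar share was, Slc7a3 and Slc7a11 were higher in the red libraries at a like share, and Slc7a2 was lower in every red library whatever the share.

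For 5 transporters the 2 highest libraries of each group were those with the most acinar marker counts: Slc1a5, Slc6a9, Slc7a11, Slc38a1 and Slc38a3. Bhlha15, a regulator of secretory cells, was the only acinar marker that passed on its own, of 14 tested (median log2 fold change of the 14, 0.68).

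Few amino acid transporters outside the 36 were abundant enough to test. Of 25 further plasma membrane transporters, 21 were in the table and 7 passed the low-count filter. Among the 7, 1 was higher and 1 lower, beside 13.1% and 11.9% of all genes tested. Slc38a8, a glutamine carrier, was higher (2.95-fold, 1.3 ± 0.316 against 0.437 ± 0.0438 CPM, adjusted p = 0.0033), and Slc6a19, the neutral amino acid carrier of gut and kidney, was lower (1.42-fold, 11.6 ± 1.82 against 16.4 ± 1.01 CPM, adjusted p = 0.0122). The other 5 did not pass, among them the creatine carrier gene Slc6a8 at 36.3 ± 1.45 and 39.6 ± 2.54 CPM. Cltrn, which encodes the partner protein collectrin that brings Slc6a19 to the membrane, was higher by 1.45-fold (743 ± 90.6 against 513 ± 93.5 CPM, adjusted p = 0.0135). It belongs to a list of 11 tested accessory proteins and regulators of transporter turnover. Of these, 5 were higher and 2 lower, beside 13.1% and 11.9% of all genes tested. The others with the smallest adjusted p were Cd44 (log2 fold change 0.77), Bsg (0.65) and Sgk1 (0.36), which were higher, and Nedd4l (-0.49) and Sgk3 (-0.29), which were lower. Bsg encodes basigin, the partner of lactate carriers, and Nedd4l a ubiquitin ligase that removes membrane transporters.

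Of 12 tested transporters of amino acids and peptides in lysosomes and vesicles, 3 were lower and 1 was higher. The shares over all genes tested were 11.9% and 13.1%, and the median log2 fold change of the 12 was 0.02. Ctns, the lysosomal cystine exporter, was lower by 1.31-fold (adjusted p = 0.00817), Mfsd1 by 1.37-fold (0.00276) and Slc12a9 by 1.32-fold (0.0353), while Tmem104 was higher by 1.22-fold (0.0379). Leaving out high glucose replicate 1, high glucose replicate 3 or low glucose replicate 1 lowered their count of 4 to 2, and it was 1 without both libraries numbered 4.

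Genes of the response to amino acid shortage, in which the kinase GCN2 and ATF4 raise many transporters, rose in part. Of 14 tested, 4 were higher and 1 was lower (median log2 fold change 0.15), beside 13.1% and 11.9% of all genes tested. With the replicate block 7 were higher and 3 lower, beside 18.9% and 18.5% of all genes. Chac1, a glutathione-degrading enzyme, rose 1.83-fold (adjusted p = 3.57e-05), Eif4ebp1 1.79-fold (5.33e-05), Asns, asparagine synthetase, 1.54-fold (0.000347) and Atf4 itself 1.45-fold (0.00178). Impact, an inhibitor of GCN2, fell 1.31-fold (0.00248). Eif2ak4, which encodes GCN2, was at 23.6 ± 1.36 and 24.6 ± 3.13 CPM (adjusted p = 0.684). Sesn2 and Trib3 did not pass (adjusted p = 0.619 and 0.174, and for Trib3 0.014 with the block). Cebpb and Ddit3 did not pass either, but passed as lower with the block (adjusted p = 0.00733 and 0.0183). Likewise Atf3 and Nupr1 passed only with the block, as higher (adjusted p = 0.0345 and 0.00536).

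Genes through which mTORC1 senses amino acids at the lysosome were lower where they changed, with 1 exception. Of 30 tested, 7 were lower and 1 was higher, with a median log2 fold change of -0.12. Over all genes tested, 11.9% were lower and 13.1% higher by the same rule. Flcn, which encodes folliculin, fell 1.91-fold from 98 ± 5.52 to 51.4 ± 3.05 CPM (adjusted p = 1.49e-05), Rragd, a Rag GTPase, 1.66-fold (3.13e-05), the folliculin partner Fnip2 2.16-fold (0.000153) and Rragc 1.42-fold (0.000522). Sec13, shared between the sensing complex GATOR and the COPII coat, rose 1.51-fold (0.000482). The kinase gene Mtor itself was at 68.8 ± 8.35 and 78.7 ± 13.4 CPM (adjusted p = 0.325, and 0.0242 with the replicate block). With the replicate block 10 were lower and 4 higher, beside 18.5% and 18.9% of all genes.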

How the data were processed

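The NEBNext Ultra kit was used for library preparation, per the labels' protocols. STAR 2.5, HTSeq 2 and DESeq2 (no version) on the mouse build mm10 (GRCm38) are named in the submitters' processing notes. For strand setting, annotation release and reads with several matches, nothing is given in the sources used here. In the deposited table, each gene has 1 raw count per library. The deposited signal columns are those counts after scaling by a size factor, as a division of the columns shows. The deposited FPKM values scale the counts by gene length and a library total. The authors' comparison supplies the log2 fold change, and each p-value there is also the authors'. Coordinates are those of the table, and 35 of the 36 genes have the same span in GENCODE M21, which gave the exon overlaps.

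All 8 libraries entered 1 edgeR 4.0.16 quasi-likelihood fit in R 4.3.3 with group as its term, after filterByExpr (minimum count 10, minimum total 15) and TMM scaling, with Benjamini-Hochberg adjustment. SE was taken as the size of the log2 fold change over the root of F. Alternatives used DESeq2 1.42.0, limma 3.58.1, other scalings and filters, the acinar share as a covariate, the replicate block and each library left out. The fit was first tested on simulated data. No library was a copy of another, since chi-square per gene was 14.1 or more in every pair.

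Both groups carry replicate numbers 1 to 4, and the labels do not define them. Deviations from the group means correlated, across 15442 genes, by 0.101, 0.449, 0.404 and 0.475 in the same-number pairs 1 to 4. Each is over 0.1, the limit used here, pair 1 only just, so the numbers were taken to pair the libraries, as a hint from the data. Low glucose replicate 1, however, correlated more with high glucose replicate 4 than with high glucose replicate 1, so pair 1 is uncertain.

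The genes and lists were chosen with earlier results of these data known. Genes past the threshold and those at 20 CPM or more are named. The 4 with the smallest adjusted p in each direction and all heteromeric chains have a value for every library. From other lists up to 4 genes per direction are named. Genes named beyond this were chosen after their values were seen, as were the promoter motifs.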

Additional observations from a re-analysis of the deposited data

Results flagged for a closer look

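In 1 of 72 groups of 4 libraries checked (36 genes, 2 groups each), a library stood apart by Dixon's criterion, which chance meets in about 1 in 20 groups. Slc6a17, the vesicular neutral amino acid carrier, was at 62.4 CPM in low glucose replicate 2, while the other low glucose libraries lay between 80.9 and 82.6 CPM. The same library held the highest share of insulin counts, at 22.7%. Without low glucose replicate 2, Slc6a17 remained higher in high glucose.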

How the results depend on the processing

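Of the 15 transporters past the threshold, 10 kept direction and call under all 18 alternatives: Slc6a17, Slc7a1, Slc7a2, Slc7a3, Slc7a11, Slc16a10, Slc36a4, Slc38a4, Slc38a7 and Slc38a10. Slc1a5 and Slc38a2 each lost the call in 9, Slc7a8 in 6, Slc43a2 in 2 and Slc36a1 in 1, and 0 reversed. With each library left out in turn, 8 to 10 transporters were higher and 3 to 6 lower. Counts of changed genes in the other lists were then 2 to 3 for other plasma membrane transporters, 2 to 4 for intracellular transporters, 5 to 6 for the deprivation response, 7 to 11 for mTORC1 sensing and 5 to 8 for accessory genes. Without both libraries numbered 4 the counts were 2 lower transporters, 1 other plasma membrane transporter, 1 intracellular transporter and 3 accessory genes, with fewer samples in that fit. A stricter low-count filter left 1 other plasma membrane transporter changed. With the replicate block 10 deprivation genes and 14 mTORC1 sensing genes changed, and without both libraries numbered 2 the latter count was also 14. The block changed the calls of Slc6a6, Slc6a9, Slc7a14, Slc38a3 and Slc43a3 and of no other transporter. Among transporters that did not pass, the log2 fold change of Slc7a6 was -0.01 with library size alone and that of Slc38a1 -0.07 with the acinar share as a covariate. With libraries left out it ran from -0.07 to 0.43 for Slc38a1, from -0.18 to 1.18 for Slc38a3 and from -0.03 to 0.38 for Slc38a5. The cause of these changes was not tested. At 3 to 28 counts per library, counting error limits Slc1a1.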
